A study of Mus musculus with 6 samples.

Results

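The genes of the elastic fibre were followed in mouse embryonic fibroblasts (MEFs) treated with TNFα. The group holds 10 genes, Eln, Fbn1, Fbn2, Fbln1, Fbln2, Fbln5, Lox, Loxl1, Loxl2 and Mfap5, out of 20275 coding genes with a row in the expression table. They were named as a functional group and chosen by their values in this same time course, so that their changes are a description and carry no test. Wildtype C57BL/6x 129 MEFs came from littermate embryos of 13.5 days and had been through 4 passages. One RNA-seq library each was made from untreated MEFs and from MEFs given 20 ng/ml TNF-alpha for 1.5, 6 or 24 hr, 4 libraries in all. One H3K4me3 ChIP-seq library with 1 input library came from untreated MEFs. H3K4me3 is a histone mark found at the starts of active genes, and TNFα is an inflammatory cytokine that acts through NF-κB.

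Elastic fibres give skin, lung and large arteries their recoil. Cells secrete tropoelastin, the product of Eln, which is laid onto a scaffold of fibrillin microfibrils with the help of fibulins and is then cross-linked by lysyl oxidases. Fibroblasts and smooth muscle cells are the main makers of these proteins, and the fibres are long lived and are broken down by elastases.

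Expression was read as RPKM, reads scaled to transcript length and library size, which allows levels to be compared between genes. The deposited RPKM has a scale of its own, called the deposited unit here, and each library has an R1 and an R2 column whose contents the sources used here do not define. The level of a library is the mean of both columns. The columns were not treated as replicates, and with 1 library per time no p-value was computed. A log2 ratio here is the library at one time over the untreated library minus the median log2 ratio of 6050 coding genes whose mean over the 8 columns was at least 100. In the order of time that median was 0.44, -0.74 and 0.10, so the deposited log2 ratio of a gene is the relative one plus this shift. A gene was counted as lower or higher at a relative ratio of at least 2-fold.

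The libraries differed in more than these medians. Across 5931 genes with a known sequence, the log2 ratio followed the GC content of the transcript, with Spearman's rho of -0.57, -0.36 and -0.56 in the order of time, a description across genes of single libraries. The ratios of the 10 genes are therefore also given against genes of like GC content, in 20 bins. How far library preparation, sequencing or the treatment itself had a part in this relation was not tested. R1 and R2 correlated at r = 0.990 to 0.992 within a library across genes. The 10 NF-κB target genes looked up, among them Ccl2, Tnfaip3 and Nfkbia, were all at least 2-fold higher at 1.5 and 6 hr, and 9 of them at 24 hr. Of 10 fibroblast markers 9 passed the minimum level, while endothelial markers summed to at most 5.04 units and epithelial markers to at most 50.4 units. The fibroblast markers moved as well, with a median of -0.67 at 24 hr, when 3 were lower and 2 higher (Col1a1 at -1.96, Dcn at 1.41 and Vim at 1.39 were the furthest), and a median of -0.41 against genes of like GC content. Of 6 smooth muscle markers, summing to 41606, 90312, 20680 and 72947 units in the order of time, 2, 0 and 2 were lower and 2, 0 and 1 higher, with medians of -0.08, -0.37 and -0.25. Myh11 and Smtn were both at -1.58 at 24 hr and Tagln at 1.34, and most of the sum came from Tagln and from Acta2, which was named after its values were seen. Of all 6050 genes 17.4%, 3.26% and 15.2% were lower and 15.8%, 7.21% and 14.4% higher at 1.5, 6 and 24 hr. Macrophage and leukocyte markers summed to between 335 and 1279 units, and the 2 that passed were both lower at 24 hr, Csf1r at -1.35 and Cd68 at -1.06. Of the 5 markers, Ptprc (0.21), Emr1 (-0.05) and Itgam (0.25) lay under the minimum level and stayed within 2-fold at that time. The part of cell composition in the results below was not tested, and in bulk RNA fewer cells of a type cannot be told apart from less RNA per cell.

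Of the 10 genes, Eln had the lowest ratio to the untreated library at all 3 times, in deposited units and relative to the median gene. Against genes of like GC content it was the lowest at 6 and 24 hr only. At 1.5 hr Fbn2 (-1.56) and Mfap5 (-1.41) lay under Eln (-1.26) on that scale. Elastin RNA (Eln, chr5:135179651-135223111, minus strand, mm9) stood at 651 units in R1 and 664 in R2 of the untreated library. After 1.5 hr R1 and R2 read 163 and 161 units, after 6 hr 64.7 and 62.2, and after 24 hr 23.9 and 22.4. Each library was thus below the one before it, and R1 and R2 differed little beside the steps between times. Relative to the median gene, the log2 ratios of the 3 treated libraries were -2.47, -2.63 and -4.93 in the order of time, that is 5.52-fold, 6.20-fold and 30.5-fold lower. As deposited, Eln was 4.06-fold, 10.4-fold and 28.4-fold lower. The 24 hr value was -4.86 from R1 alone and -4.99 from R2 alone. Among the 6050 genes Eln held place 45 from the lowest at 1.5 hr, and place 1 at both 6 and 24 hr.

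How the fall was spread over time depended on the scale. Relative to the median gene, the log2 ratio moved by -0.17 from 1.5 to 6 hr and by -2.30 from 6 to 24 hr. Against genes of like GC content, described next, it was -1.26, -2.48 and -3.85 in the order of time, with steps of nearly equal size. The deposited level of Eln also fell from 1.5 to 6 hr, an interval in which the median gene fell too. Judged from the size of 1 read in low values, which is approximate, the R1 columns held about 1761, 464, 150 and 76 reads of Eln in the order of time, so the 24 hr value rests on the fewest reads of any member.

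Eln is rich in GC, at 62.6%. The 297 genes of like GC content (60.8% to 71.7%) had themselves median log2 ratios of -1.21, -0.15 and -1.08 in the order of time. Against those genes Eln was 2.39-fold lower at 1.5 hr, 5.58-fold at 6 hr and 14.4-fold at 24 hr. It held place 15 of 297 at 1.5 hr and place 1 at 6 and 24 hr. The direction at each time was therefore kept within genes of like GC content, with a smaller size. After the same centring of all 5931 genes, Eln ranked 361 from the lowest at 1.5 hr, 1 at 6 hr and 3 at 24 hr.

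**Figure D1:**
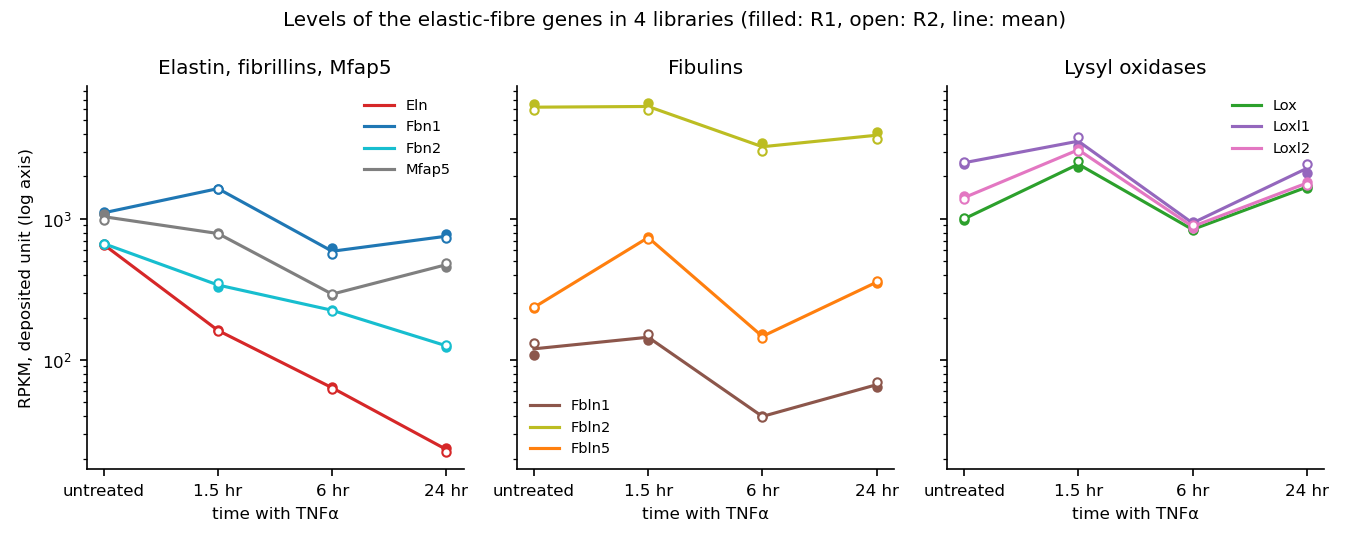
Level of each elastic-fibre gene (RPKM in the deposited unit, log axis) in the untreated library and after 1.5, 6 and 24 hr of TNFα. Filled points are R1 columns, open points R2 columns and lines the mean of both, with 1 library per time. Eln runs from 657 units to 23.2 units, while the lysyl oxidases are high at 1.5 hr, low at 6 hr and high again at 24 hr.

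The fibrillins are the large glycoproteins of the microfibril, and the 2 measured here parted. Fbn1, the main adult fibrillin, was read at 1122 and 1089 units untreated (R1 and R2), 1640 and 1639 at 1.5 hr, 617 and 563 at 6 hr, and 776 and 733 at 24 hr. Fbn2, the fibrillin made mostly during development, went from 669 and 666 units to 329 and 350 at 1.5 hr, 227 and 223 at 6 hr, and 124 and 127 at 24 hr. Fbn2 was lower in every later library, whereas Fbn1 was higher at 1.5 hr in deposited units and lower at 6 and 24 hr.

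In relative terms Fbn1 stayed within 2-fold, with log2 ratios of 0.13, -0.17 and -0.65 in the order of time. Against genes of like GC content they were 0.11, -0.06 and -0.66. Fbn2 was 2.67-fold lower at 1.5 hr, 1.78-fold at 6 hr and 5.71-fold at 24 hr. The level of Fbn2 was 0.604 times that of Fbn1 untreated and 0.207, 0.382 and 0.167 times that of Fbn1 at 1.5, 6 and 24 hr. Both transcripts have a similar GC content, 52.3% for Fbn1 and 51.8% for Fbn2. Against genes of like GC content Fbn2 was 2.96-fold, 1.72-fold and 5.94-fold lower, and it held place 2 of 297 from the lowest at 24 hr. The fall of Fbn2 at 1.5 and 24 hr thus had about the same size with and without regard to GC content.

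Mfap5, a microfibril-associated glycoprotein that binds fibrillin, also declined. Its R1 and R2 columns gave 1090 and 984 units untreated, 799 and 778 at 1.5 hr, 290 and 296 at 6 hr, and 459 and 488 at 24 hr. The 3 treated libraries all lay below the untreated one. Relative to the median gene, its log2 ratios were -0.84, -1.08 and -1.23 in the order of time, the last a level 2.35-fold lower. At 6 hr R1 alone gave -1.20 and R2 alone -0.97, so that call lies at the edge of the 2-fold limit. Mfap5 has a GC content of 46.4%, and genes of like GC content had a median of 0.57 at 1.5 hr. Against them Mfap5 was 2.66-fold, 2.46-fold and 3.38-fold lower at the 3 times, past 2-fold at each.

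The fibulins bind tropoelastin and microfibrils, and they spanned the widest range of levels. Fbln2 was the most abundant of the 10 genes in each library, at 6193 units untreated, 6266 at 1.5 hr, 3248 at 6 hr and 3918 at 24 hr (means of R1 and R2). Its relative log2 ratios of -0.43, -0.19 and -0.76 stayed within 2-fold, and both of its transcript rows gave the same deposited ratios. Against genes of like GC content Fbln2 was at 0.17, -0.05 and -0.21. Fbln1 was the least abundant untreated, at 108 and 132 units in R1 and R2, and stood at 145, 39.8 and 66.8 units at 1.5, 6 and 24 hr. Its mean over the 8 columns of 93 units lies under the minimum of 100, and it is the 1 member that did not pass. Its relative log2 ratios were -0.17, -0.86 and -0.95. Against genes of like GC content Fbln1 was at 0.24, -0.68 and -0.55, so its sign at 1.5 hr, like that of Fbln2, depended on the scale.

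Fbln5, which is needed to assemble elastin onto microfibrils, did not share the fall of Eln. R1 and R2 read 234 and 238 units untreated, 749 and 726 at 1.5 hr, 152 and 143 at 6 hr, and 352 and 361 at 24 hr. The 1.5 hr library stood highest, and the 6 hr library lay under the untreated one in deposited units. The relative ratio at 1.5 hr was 2.30-fold higher (log2 1.20), place 678 of 6050 from the highest, with log2 ratios of 0.06 and 0.49 at the later times. Fbln5 has a GC content of 46.9%, and genes of like GC content had a median of 0.57 at 1.5 hr and of 0.52 at 24 hr. Against them its log2 ratio was 0.63, -0.15 and -0.03, so that its call at 1.5 hr is lost and nothing is left at 24 hr. Untreated MEFs held 2.79 times as much Eln as Fbln5, and the ratio was 0.219, 0.430 and 0.065 at 1.5, 6 and 24 hr. These genes differ in GC content (62.6% for Eln), so part of that change may follow GC content, which was not tested.

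The lysyl oxidases, copper enzymes that cross-link elastin and collagen, shared a saw-tooth course in deposited units. Lox was at 989 and 1013 units untreated (R1 and R2), 2322 and 2564 at 1.5 hr, 848 and 835 at 6 hr, and 1644 and 1714 at 24 hr. Loxl1, the member of the family tied most closely to elastic fibres, was at 2458 and 2546 units, 3308 and 3803, 949 and 921, and 2121 and 2440 at the same times. Loxl2 was at 1444 and 1386 units untreated and at 3091, 883 and 1793 units at 1.5, 6 and 24 hr. All 3 were high at 1.5 hr and low at 6 hr, the course of the library medians.

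With that shift removed, none of the lysyl oxidases passed 2-fold at any time. Lox had log2 ratios of 0.84, 0.49 and 0.64, Loxl2 of 0.68, 0.06 and 0.24, and Loxl1 of 0.06, -0.68 and -0.24. Their GC contents differ, 42.6% for Lox, 51.1% for Loxl2 and 60.8% for Loxl1. Against genes of like GC content Lox was at -0.03, -0.06 and -0.11, close to the middle of its bin at each time. Loxl1 turned the other way, to 1.27 at 1.5 hr and 0.84 at 24 hr, with -0.53 at 6 hr. Loxl2 was at 0.48, 0.12 and 0.06 on that scale. The order of Lox and Loxl1 in their change thus depended on the scale. In RPKM, Loxl1 lay above Lox in each library, by 1.11-fold to 2.50-fold, a ratio between genes of unlike GC content.

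Over the 10 genes, 2 were at least 2-fold lower at 1.5 hr (Eln and Fbn2), when 17.4% of all 6050 genes were. At 6 hr 2 were lower (Eln and Mfap5) against 3.26% of all genes, and at 24 hr 3 were lower (Eln, Fbn2 and Mfap5) against 15.2%. Higher by at least 2-fold were 1 gene at 1.5 hr (Fbln5), 0 at 6 hr and 0 at 24 hr, against 15.8%, 7.21% and 14.4% of all genes. Since the members were selected on these ratios, nothing is read from their counts beside these shares. The median of the members was -0.05, -0.44 and -0.71 in the order of time, where the middle 50% of all genes ran from -0.71 to 0.70, from -0.36 to 0.41 and from -0.67 to 0.65. In deposited units 1, 5 and 3 members were lower, when 7.97%, 31.5% and 12.8% of all genes were, and 3, 0 and 0 were higher, when 29.8%, 1.83% and 16.8% were. Centring within GC bins gave 3, 2 and 3 lower (Eln and Mfap5 at each time, Fbn2 at 1.5 and 24 hr). It gave 1, 0 and 0 higher, the higher one then being Loxl1. On that scale 10.4%, 2.70% and 9.0% of 5931 genes were lower in the order of time. Of the same 5931 genes, 639, 294 and 622 were higher.

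Eln, Fbln1 and Mfap5 fell relative to the median gene at each successive time, the order seen in 2.23% of all genes. For Eln that order was the same in deposited units and within GC bins. Mfap5 and Fbln1 did not keep it on either of those scales, and from 6 to 24 hr their relative steps were -0.15 and -0.09, smaller than the largest differences between R1 and R2 (0.18 to 0.24). The relative step of Eln from 1.5 to 6 hr, -0.17, was also smaller in size than these differences. Of the 10 genes, 6 had their lowest relative level at 24 hr and 3 (Fbln5, Lox and Loxl2) in the untreated library. In deposited units, 8 of 10 were lowest at 6 hr, and Eln and Fbn2 at 24 hr. The make-up of the group changed with time. Eln was the 8th most abundant of the 10 untreated and the 10th at 24 hr, and its share of their summed RPKM went from 4.40% to 0.202%. Lox went from 1.50 times the level of Fbn2 untreated to 13.4 times at 24 hr, a ratio between genes of unlike GC content (42.6% and 51.8%).

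**Figure D2:**
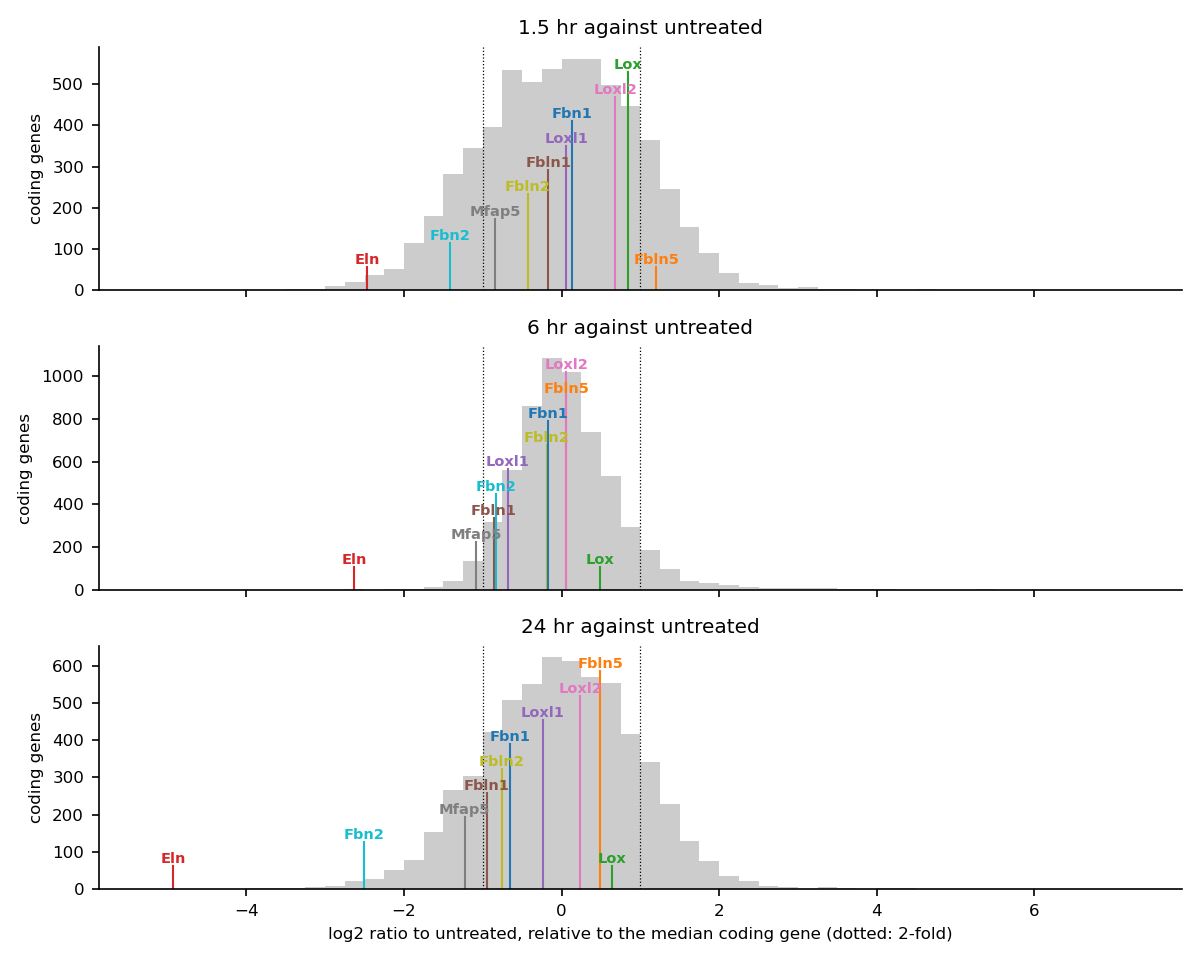
Log2 ratio to the untreated library, relative to the median coding gene, for 6050 coding genes (grey histogram, number of genes per 0.25 log2) and for the 10 elastic-fibre genes (coloured lines, whose height only separates the names) at 1.5, 6 and 24 hr. Eln lies at -2.47, -2.63 and -4.93, outside the mass of genes at 6 and 24 hr, and most other members lie between the dotted 2-fold limits.

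The genes whose course was most like that of Eln were found by the distance over the 3 relative log2 ratios, 1 per time, among the 6049 other genes. The nearest was Podn, which encodes podocan, a small leucine-rich proteoglycan, at a distance of 1.02. Podn was at 1034 units untreated and at 234, 102 and 73.3 units at 1.5, 6 and 24 hr. Apoe, the apolipoprotein, followed at 1.92, Mif4gd at 2.05, A430110N23Rik at 2.14 and Itga11, a collagen-binding integrin chain, at 2.29. At 24 hr Podn had a log2 ratio of -3.92 and Apoe of -3.94, so Eln lay below each of these genes at that time. Against genes of like GC content the 24 hr values were -3.37 for Podn, -3.19 for Apoe, -2.84 for Mif4gd, -2.50 for A430110N23Rik and -2.83 for Itga11. Among the members, Fbn2 came nearest to Eln at a distance of 3.19 (place 28), then Mfap5 at 4.33 (place 388), and Lox was the furthest of those that passed at 7.19 (place 4749).

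**Figure D3:**
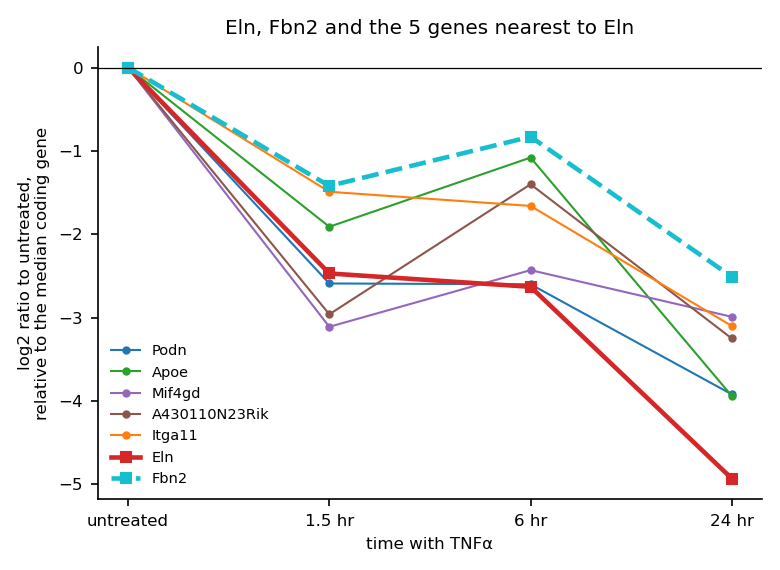
Log2 ratio to the untreated library, relative to the median coding gene, at each time for Eln, Fbn2 and the 5 genes nearest to Eln, with 1 library per time. Eln and Podn run together to 6 hr and part at 24 hr (-4.93 and -3.92), and Fbn2 runs above both.

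The other genes of elastic fibres and microfibrils had medians under 0 at all 3 times. Of 24 such genes 23 were in the table and 16 passed the minimum. Of these 5, 1 and 7 were at least 2-fold lower and 1, 0 and 1 higher at 1.5, 6 and 24 hr, with medians of -0.68, -0.12 and -0.95. Of all genes 17.4%, 3.26% and 15.2% were lower and 15.8%, 7.21% and 14.4% higher at these times. The 1 of 16 that was lower at 6 hr is thus close to the share of all genes. The furthest at 24 hr were Adamtsl4, which promotes fibrillin-1 deposition, at -2.18, Ltbp3, a TGF-β binding protein, at -1.80 and Emilin1, a glycoprotein at the elastin surface, at -1.54. Against genes of like GC content their ratios were -1.43, -0.72 and -0.46, and the list had 3, 0 and 1 genes lower and 0 higher, where 10.4%, 2.70% and 9.0% of all genes were lower. The medians of the list on that scale were -0.18, -0.33 and -0.48, still under 0 and, at 6 hr, further from 0 than before.

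Enzymes that degrade elastin did not move as one. Of 10, 7 passed, of which 1, 0 and 1 were lower and 2, 1 and 1 higher at 1.5, 6 and 24 hr. Among all 6050 genes 17.4%, 3.26% and 15.2% were lower and 15.8%, 7.21% and 14.4% higher. Mmp9, gelatinase B, was higher at each time and stood at log2 3.45 at 24 hr (47, 227, 191 and 553 units in the order of time), and at 3.73 against genes of like GC content. Mmp2, gelatinase A, was at -1.27 at 24 hr and at -0.86 within its GC bin, and Ctsl, cathepsin L, at 0.85 and 0.18. Of 8 protease inhibitors looked up 5 passed and 0, 0 and 1 were higher, with 0 lower. Timp1, an inhibitor of matrix metalloproteinases, was at 1.24 at 24 hr and at 1.23 within its GC bin. Serpine2, a protease inhibitor, was at 0.50 and 0.06, and Cst3, cystatin C, at 0.44 and 0.99.

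TGF-β is known to raise elastin synthesis. Of 11 TGF-β ligands, receptors and Smads 7 passed, with 0, 1 and 2 lower and 0 higher. Beside each list in this paragraph stand the shares of all 6050 genes, 17.4%, 3.26% and 15.2% lower and 15.8%, 7.21% and 14.4% higher. Tgfb3 stood at -1.45 and Tgfb2 at -1.03 at 24 hr, and at -1.45 and -1.48 against genes of like GC content. Tgfb1 was at -0.88 and, within its GC bin, at 0.20. Of 13 factors known to act on elastin transcription 10 passed, with 1, 0 and 1 lower and 3, 3 and 3 higher. Junb and Fosl1, parts of the AP-1 factor, were at 2.05 and 1.31 at 24 hr and Cebpb at 1.66, and all 3 were also past 2-fold within their GC bins, at 3.13, 1.90 and 2.74. Of the 8 elastin-binding proteins and receptors all passed, with 0, 1 and 0 lower and 2, 2 and 3 higher. The integrin chains Itgb1 and Itgav were at 1.46 and 1.27 at 24 hr and Lgals3, galectin-3, at 1.29, and of these Lgals3 stayed past 2-fold within its GC bin at 1.69, with 0.79 for Itgb1 and 0.52 for Itgav.

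**Figure D4:**
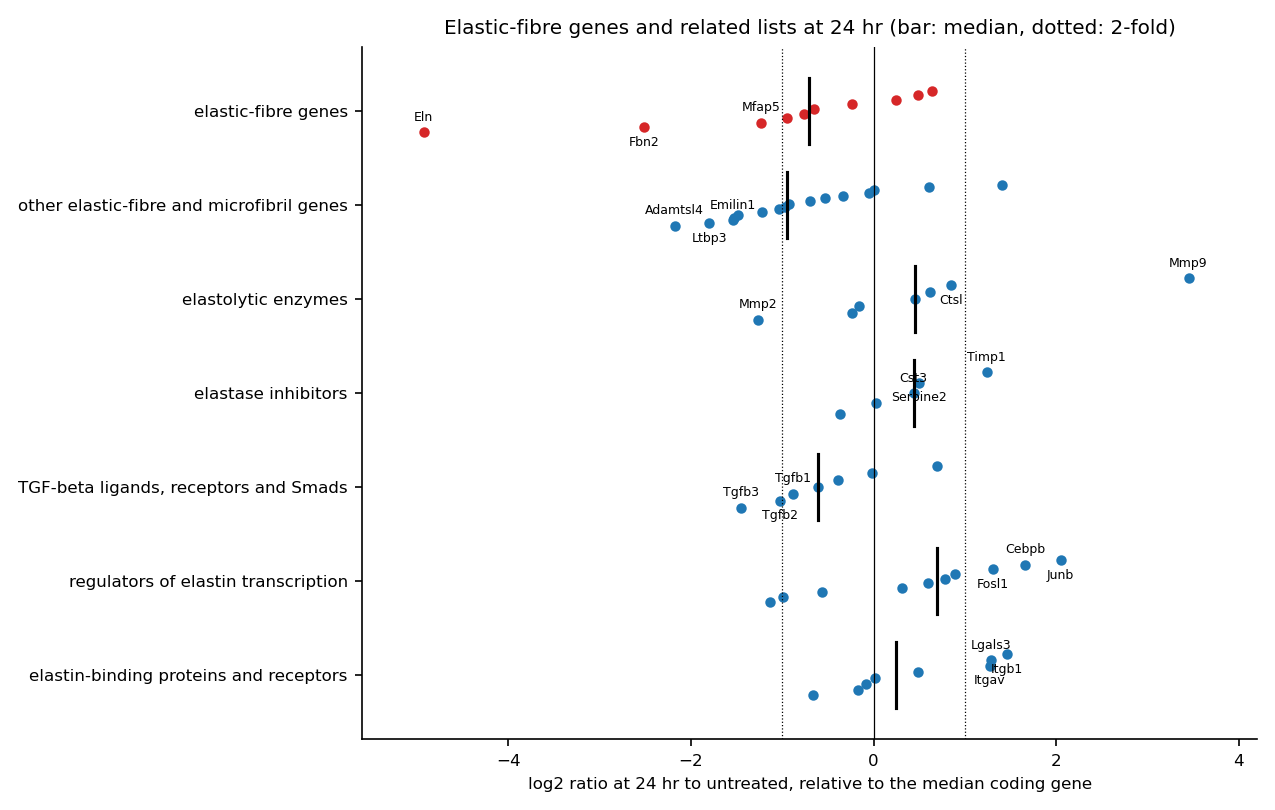
Log2 ratio at 24 hr to the untreated library, relative to the median coding gene, for the 10 elastic-fibre genes (red) and for the genes of related lists that passed the minimum level (blue), 1 point per gene, with the median of each list as a bar. Eln at -4.93 and Fbn2 at -2.51 are the lowest points, and Mmp9 at 3.45 the highest.

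H3K4me3 in untreated MEFs gave a reading at the same genes that was not used to choose them. A peak lay within 1 kb of an annotated start for 8 of the 10 members, compared with 92.4% of 5931 coding genes. Eln and Mfap5 had none, and the nearest peak was 57235 bp from the start of Eln and 13332 bp from that of Mfap5. The deposited list holds no peak under a fold enrichment of 20, so a weaker mark at these starts was not seen here. Eln and Mfap5 were nevertheless read at 657 and 1037 units in the untreated library. The cause of the missing peaks was not tested.

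The peaks of Loxl1 and Lox were the largest of the 8 in tags and length, and that of Loxl2 was near the median of the list in tags. The peak of Loxl1 held 3360 tags over 11131 bp, a length at percentile 99.5 of all 11157 peaks, at a fold enrichment of 26.2. The peak of Lox held 3349 tags over 8254 bp at a fold enrichment of 61.9, and that of Loxl2 1135 tags over 4867 bp at 63.4. The median peak of the list had 1049 tags, 3187 bp and a fold enrichment of 45.5.

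The fibrillins had 2725 tags (Fbn1, over 6723 bp) and 2009 tags (Fbn2, over 5188 bp). Untreated, the Fbn2 peak was thus above the list median in tags and length, although the RNA of Fbn2 fell after TNFα. The fold enrichment of that peak, 41.7, was under the list median of 45.5. The fibulins were spread widely, with 2279 tags at Fbln2, 1696 at Fbln5 and 488 at Fbln1, the last with a fold enrichment of 20.3, just above the lowest in the list. All 8 peaks covered the start and reached further into the gene than upstream of it. No H3K4me3 library of treated MEFs was analysed here, so no change of the mark was measured.

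**Figure D5:**
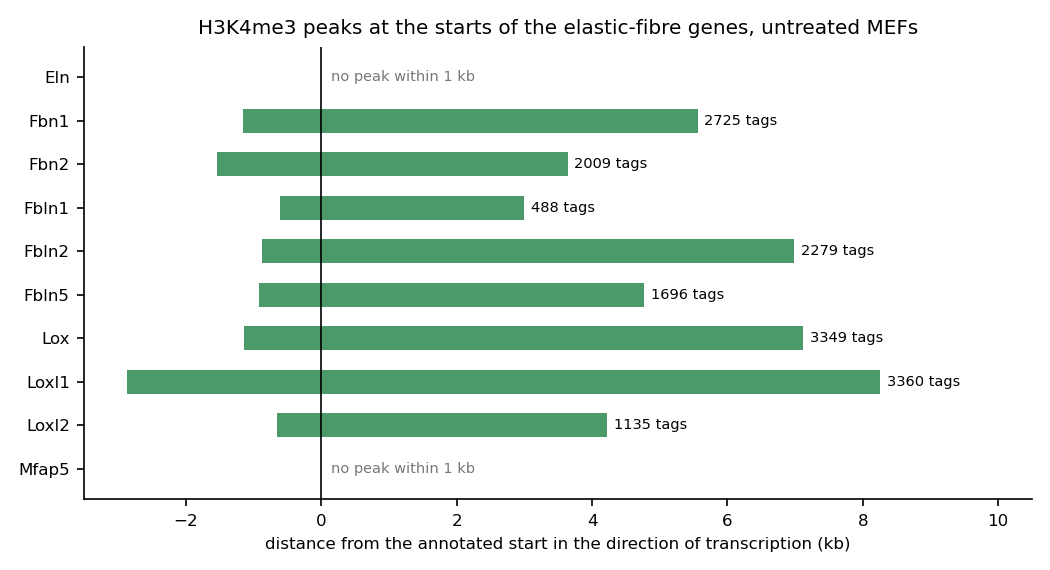
H3K4me3 peaks of untreated MEFs at the starts of the elastic-fibre genes, as distance from the annotated start in kb in the direction of transcription, with the number of tags in each peak. The bars of 8 genes cross the start, and Eln and Mfap5 have none within 1 kb.

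Promoter sequences were looked up in RefSeq (GRCm38.p6), where 4 of the 10 members matched (Fbn1, Fbln1, Fbln2 and Fbln5). Shown are the 250 bases before a start of Fbln1 and of Fbln5, the fibulins with the smallest peak and with the call at 1.5 hr, each found once in mm9 and whole within the gene's H3K4me3 peak. Fbln1 lies at chr15:85036129-85036378 on the plus strand and Fbln5 at chr12:103057330-103057579 on the minus strand. Capitals mark GC boxes (GGGCGG on either strand), the motif of Sp1.
Fbln1: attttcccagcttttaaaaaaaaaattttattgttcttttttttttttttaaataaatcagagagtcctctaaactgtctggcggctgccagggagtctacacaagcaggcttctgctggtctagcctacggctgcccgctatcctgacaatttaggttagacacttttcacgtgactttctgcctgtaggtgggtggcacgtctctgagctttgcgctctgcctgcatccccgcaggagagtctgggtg
Fbln5: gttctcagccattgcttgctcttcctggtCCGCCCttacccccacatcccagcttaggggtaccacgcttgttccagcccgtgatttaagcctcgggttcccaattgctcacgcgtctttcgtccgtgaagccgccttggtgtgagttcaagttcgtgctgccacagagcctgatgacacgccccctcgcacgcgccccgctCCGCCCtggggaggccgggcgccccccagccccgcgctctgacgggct

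The Fbln5 window had a GC content of 65.2% with 21 CpG and GC boxes starting 221 and 48 bases before the start, both on the reverse strand. The Fbln1 window had 46.4% GC with 7 CpG and no GC box. A GC box stood in 33.0% of 32536 distinct promoter windows of this length. Neither window held a TATA box (TATAAA, in 12.3% of windows), an AP-1 site (TGANTCA, in 6.73%) or a κB site (in 7.28%) on either strand, which says only that these letters are not in these 250 bases. Of the other windows, that before a further start of Fbln1 reaches into an exon. It held a GC box 11 and a κB site 29 bases before that start. Those of Fbn1 and Fbln2, all 250 bases of which lie in annotated exons, held 1 GC box each. A further window of Fbln5 held none of these motifs. At the level of RNA, Fbln5 stood at 1.96 times Fbln1 untreated and at 5.08, 3.71 and 5.34 times at 1.5, 6 and 24 hr. Their transcripts differ in GC content, 46.9% and 54.7%.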

How the data were processed

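RNA-seq and H3K4me3 ChIP-seq of MEFs were taken as deposited. Per the study's methods the authors mapped reads to mm9 with TopHat (RNA) and Bowtie (ChIP) and deposited RPKM per RefSeq transcript in an R1 and an R2 column per library. Columns were assigned to times by the names in the study's sample list. The deposited peak list, called by the authors with MACS against input, gave a count of tags, a fold enrichment (a ratio) and an FDR in percent per peak. Sums of the deposited RPKM columns ran from 4806716 to 10805190, and 46.0% to 51.4% of low values were whole multiples of 1 read within 0.03, so reads are approximate and no counting interval is given. The relative depth judged from them was 0.858 to 1.18 of untreated.

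For each gene the coding row with the highest mean of the 8 columns was used, without a pseudocount. Ratios were centred on the median of 6050 genes with a mean of at least 100. GC content came from GENCODE transcripts of mm9, in 20 bins with 297 genes or fewer among tested genes. The centring was run on simulated data in which few genes changed and no GC trend was built in. That is a check of the code and cannot tell whether the centring suits these libraries. Python 3.11.15, numpy 2.4.6 and pandas 2.3.3 were used. All 10 members were named. Of each related list, at most the 3 genes furthest from 0 at 24 hr among those past the minimum were named, with the 5 genes nearest to Eln. Acta2, Ptprc, Emr1, Itgam and the genes of the last paragraph were named outside this rule. Members and lists were chosen with earlier results of these data known. Samples were grouped by the treatment label, with 1 library per group, so there is no test and no replicate error. For the 24 hr library the extraction label describes ChIP, but the remaining labels describe RNA-seq, and it was used as such. Other scalings, pseudocounts, minimum levels, columns and fold limits were tried.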

Additional observations from a re-analysis of the deposited data

How the results depend on the processing

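With 1 library per time, differences between libraries cannot be told apart from differences between preparations, and no paired analysis was possible because each time has 1 library and the labels give no replicate numbers. Eln stayed at least 2-fold lower at all 3 times under each of the 12 alternatives, and Fbn2 and Mfap5 did so at 24 hr. Fbln5 kept its call at 1.5 hr in 11 of 13 settings, the reported one included, Fbn2 at 1.5 hr in 12 and Mfap5 at 6 hr in 10. No ratio past 2-fold changed sign, while ratios within 2-fold of Fbln1, Fbln2, Fbln5, Lox, Loxl1 and Loxl2 and the members' median at 1.5 hr had the other sign under some settings. The peak count stayed at 8 with other windows and was 6 at a fold enrichment of at least 40. The cause of a change with a setting was not tested.

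The log2 ratio of Eln at 1.5, 6 and 24 hr was -2.02, -3.37 and -4.83 as deposited, -2.27, -2.54 and -4.77 scaled to the sum, -1.26, -2.48 and -3.85 within GC bins, -2.39, -2.48 and -4.43 with a pseudocount of 10, -1.86, -1.74 and -2.69 with 100, and -2.37, -2.49 and -4.84 with a minimum of 1000. The members' median was 0.39, -1.18 and -0.61 as deposited, 0.14, -0.35 and -0.55 scaled to the sum, and 0.14, -0.34 and -0.38 within GC bins. At 1.5 and 24 hr it was -0.02 and -0.68 with noncoding transcripts added to the median of ratios and -0.02 and -0.67 with no minimum level. It was -0.46 at 6 hr with a pseudocount of 10, 0.00, -0.38 and -0.52 with a pseudocount of 100 and 0.05, -0.29 and -0.62 with a minimum of 1000. The count of members lower at 1.5 hr was 1 as deposited, when 7.97% of all genes were lower, and 1 at a 3-fold limit. At 6 hr it was 5 as deposited, when 31.5% of all genes were lower. At that time it was 1 scaled to the sum, 1 from R2 alone, 1 with a minimum of 1000, 1 at 3-fold and 5 at 1.5-fold. At 24 hr it was 6 at 1.5-fold. The count higher at 1.5 hr was 3 as deposited, when 29.8% of all genes were higher. At that time it was 2 scaled to the sum, 0 with a pseudocount of 100, 0 at 3-fold and 3 at 1.5-fold. At 24 hr 1 was higher at 1.5-fold. For the other settings in this paragraph shares of all genes are not given, so nothing is read from these counts.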

Other observations

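Eln and Mfap5 belong to the coding genes without an H3K4me3 peak within 1 kb of a start in untreated MEFs. The shares of that class, set beside those of genes with a peak, were computed after the values of Eln were seen, and the difference was not tested. Of 449 genes without a peak, 31.6% were at least 2-fold lower at 1.5 hr, 9.58% at 6 hr and 32.1% at 24 hr. Of 5482 genes with a peak, 16.2%, 2.72% and 13.9% were. The shares higher in the order of time were 18.3%, 12.2% and 17.4% without a peak and 15.7%, 6.73% and 14.1% with a peak. Of the 1342 genes with an untreated level at least that of Eln, 85 (6.33%) had no peak.

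Of the elastase Mmp12, which lay under the minimum level and outside the naming rule and was chosen after its values were seen, the levels were 1.31 units untreated and 20.2, 12.6 and 60.6 units at 1.5, 6 and 24 hr. Loxl4, a further lysyl oxidase under the minimum, was at 41.4, 134, 29.2 and 110 units in the order of time, a log2 ratio of 1.25 at 1.5 hr and 1.30 at 24 hr. Emilin3 and Adamtsl2, also under the minimum, were at 2.41 and 7.83 units untreated and at 0.228 and 0.866 units at 24 hr. Loxl4, Emilin3 and Adamtsl2 lay outside the naming rule as well. Of the rest of their list under the minimum, Fbln7 was at a log2 ratio of -3.17 at 24 hr. Efemp1 (0.27), Mfap3 (0.45) and Emilin2 (-0.87) stayed within 2-fold at that time.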
